A study of Drosophila melanogaster with 4 samples.

Results

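Small nuclear RNAs are short non-coding RNAs that work in the nucleus as RNA-protein particles (snRNPs). U1, U2, U4, U5 and U6 form the major spliceosome: U1 pairs with the 5′ splice site, U2 with the branch point, U5 holds the exons, and U6, delivered to the complex in a duplex with U4, takes part in catalysis. U11, U12, U4atac and U6atac take the places of U1, U2, U4 and U6 in the minor spliceosome, which removes a rare class of introns. RNA polymerase III makes U6, U6atac and 7SK, and RNA polymerase II makes the others. The genes described were those whose Release 6 symbol starts with snRNA:, tied to the counted regions by their coordinates and grouped by the U number in the symbol. This gave 32 genes, and 31 of them stood among the 17437 genes or joint loci in the tables. The rule also takes in members outside splicing: U7, which acts in histone mRNA 3′ end formation, and 7SKa and 7SKb, which hold an elongation kinase inactive. It takes in LU as well, which has no U number and is not assigned a function here.

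Ribosome footprints were sequenced from ovaries of Drosophila melanogaster in 4 libraries, 2 of RpS5b mutant females and 2 of wildtype females. RpS5b encodes a protein of the small ribosomal subunit. Ovaries of both groups were dissected by hand 48 hours after eclosion, and egg chambers of stages 10 to 14 were removed from the control ovaries. As this removal is given for the control ovaries, its effect cannot be told apart from that of genotype. The labels give no allele for the mutant, no strain, and nothing on whether both libraries of a genotype were prepared from different females. The p-values therefore reflect the spread of these libraries, which may be technical. Per the labels, fragments of 28 to 34 nt were selected and ribosomal RNA was depleted, and a count per gene is a count of such fragments. The snRNAs carry no reading frame, so their counts are not a measure of translation. What protected these fragments, and how far their counts follow the amount of each snRNA, was not tested. A fall or rise of an RNA below is one of its fragment counts.

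The libraries held between 3122299 and 13942184 reads. RpS5b itself had 0.906 ± 0.181 CPM in mutant ovaries and 78.1 ± 21.1 CPM in wildtype ovaries (SD, n = 2 each), which gave a log2 fold change of -6.42. CPM are counts scaled by the TMM-adjusted total of the library, with no correction for length. Germline markers were measured in both groups, 4 of 5 in the tables, with summed levels between 131 and 151 CPM in mutant libraries and between 188 and 203 CPM in wildtype libraries and a median log2 fold change of 0.081, the opposite direction. Chorion genes, markers of late egg chambers, summed to between 993 and 1432 CPM in mutant and between 4311 and 6542 CPM in wildtype libraries, over 6 of 6 markers. The higher sums were thus in the group from which late stages were removed, and the reason was not tested. The markers tj, br and Egfr of follicle cells summed to between 259.9 and 269.8 CPM in mutant and between 114 and 120.2 CPM in wildtype libraries. The 4 fat body markers summed to 43.8 and 39.8 CPM in the mutant libraries, against 20.7 and 16.8 CPM in the wildtype libraries, with Fbp1 and Fbp2 at 0 in all 4. The 4 muscle markers summed to 109.8 and 85.6 CPM in the mutant libraries, against 111.1 and 73.7 CPM in the wildtype libraries. The 3 nerve markers summed to at most 2.64 CPM in a library, with Syt1 at 0, and the 3 gut markers were at 0 throughout. The part of these differences in the snRNA results was not tested. In bulk ovary tissue, fewer cells of a type and less RNA per cell cannot be told apart.

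Of the 32 snRNA genes, 31 matched 1 counted region each, with the same start and end, and 29 passed the filter on low counts. The remaining one, snRNA:7SKb, was not analysed here. The members below the filter were snRNA:U4:25F, with 1 and 4 counts in mutant libraries against 0 and 1 in wildtype libraries, and snRNA:U6atac, with 0 and 2 counts in mutant libraries against 1 and 0 in wildtype libraries. Neither is given a fold change.

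Footprint counts of the snRNAs of the 5′ splice site and the branch point of major introns, and of U11, were lower in mutant ovaries. All 5 U1 genes, all 6 U2 genes, U11 and the U5 copy snRNA:U5:14B were lower in the mutant at an adjusted p under 0.05, which makes 13 of the 29 tested, and 0 were higher. Over all 7783 genes tested, 20.9% were lower and 20.5% higher by the same rule (edgeR quasi-likelihood test, Benjamini-Hochberg adjustment over all genes). A further 7 snRNA genes, the 3 U6 genes among them, had an unadjusted p under 0.05 without passing, and DESeq2's Wald test called 13 lower and 0 higher, against 14.6% and 10.9% of all genes by that test. The chorion genes, with a median log2 fold change of -2.47, were lower in the same libraries. Both mutant libraries lay below both wildtype libraries for 16 of the 29 and above them for 3, against 34.3% and 37.6% of all genes tested. The median log2 fold change of the 29 was -0.66, and that of all genes tested was 0.031. The 13 stand for fewer independent measurements than genes, because copies of a class share reads. They numbered 8 without mutant replicate 1, 22 without mutant replicate 2, 20 without wildtype replicate 1 and 11 without wildtype replicate 2.

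**Figure D1:**
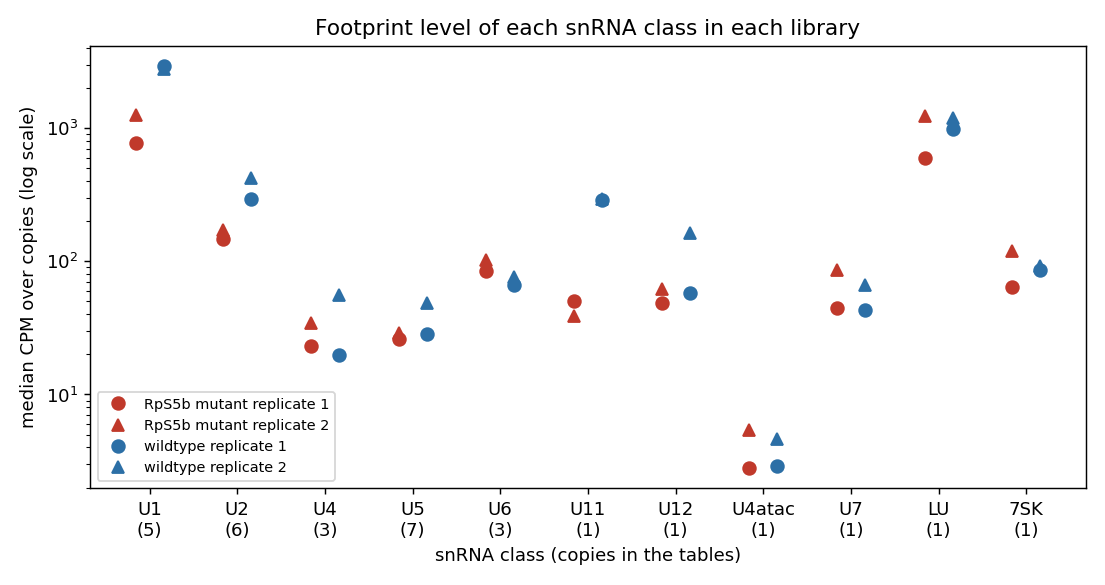
Median CPM over the copies of each snRNA class (log scale), with 1 point per library, mutant libraries in red at the left of each class and wildtype libraries in blue at its right. U1, U2 and U11 are lower in both mutant libraries than in both wildtype libraries, U6 is higher in both, and the other classes overlap between the groups.

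U1 had the most footprint counts of the numbered classes. The median over its 5 copies was 780 and 1259 CPM in the mutant libraries, against 2927 and 2783 CPM in the wildtype libraries. The wildtype libraries were close to each other, the mutant libraries were further apart, and the groups did not overlap. The gene snRNA:U1:21D, on chromosome 2L at 901491 to 901654 (164 nt, minus strand), had 1019 ± 339 CPM in mutant ovaries and 2855 ± 101 CPM in wildtype ovaries (SD, n = 2 each). Its log2 fold change was -1.49 (SE 0.28, edgeR adjusted p = 0.00477), 0.357 times the wildtype level. The copies snRNA:U1:95Ca and snRNA:U1:95Cb on chromosome 3R had the same counts as snRNA:U1:21D in all 4 libraries: 10015 and 10956 in the mutant libraries, against 9032 and 15074 in the wildtype libraries. The copies snRNA:U1:95Cc and snRNA:U1:82Eb differ slightly in counts and were at -1.55 and -1.56 on the log2 scale. Without mutant replicate 1 the class was at -1.20 and the 3 copies with equal counts missed the threshold (edgeR adjusted p = 0.0513).

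U2 was lower as well. The median over its 6 copies was 147 and 172 CPM in the mutant libraries, against 295 and 421 CPM in the wildtype libraries, with no overlap, and the median log2 fold change was -1.07. The copies ranged between -1.26 and -0.70. The largest fall of the class was that of snRNA:U2:34ABa, on chromosome 2L at 13211925 to 13212116 on the minus strand, with 160 ± 15.2 CPM in mutant ovaries and 384 ± 90.0 CPM in wildtype ovaries (SD, n = 2 each), which gave a log2 fold change of -1.26 with SE 0.20 (edgeR adjusted p = 0.00263). The smallest were those of snRNA:U2:34ABb and snRNA:U2:34ABc, which had the same counts in every library. Each was at 255 ± 21.1 CPM in mutant ovaries and 412 ± 122 CPM in wildtype ovaries (SD, n = 2 each), which gave a log2 fold change of -0.70 with SE 0.23 (edgeR adjusted p = 0.0421). Their calls were lost in 3 of 12 alternatives: with scaling by total counts, without mutant replicate 1 and without wildtype replicate 2 (edgeR adjusted p between 0.0801 and 0.208). The calls of the other 4 U2 copies were kept in all 12.

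U6 had its higher values in the mutant. Its 3 genes lie in a row on chromosome 3R between 24556088 and 24557321 on the plus strand and had the same counts: 1084 and 885 in the mutant libraries, against 205 and 410 in the wildtype libraries. In CPM this was 84.4 and 102 in the mutant libraries, against 66.4 and 75.7 in the wildtype libraries. The groups did not overlap, with a log2 fold change of 0.38 with SE 0.16, and the difference did not pass the adjustment over all genes (edgeR unadjusted p = 0.0406, adjusted p = 0.0841). In the authors' deposited RPKM, which are scaled by length and by the reads of the library, the U1 class was at 6.03 and 8.08 times the U6 class in the mutant libraries, against 28.7 and 24.0 times in the wildtype libraries. The U2 class was at 0.972 and 0.941 times the U6 class in the mutant libraries, against 2.47 and 3.10 times in the wildtype libraries. Both ratios were lower in each mutant library than in each wildtype library. The ratio of U1 to U2, at 6.20 and 8.58 in the mutant libraries and 11.6 and 7.74 in the wildtype libraries, overlapped. With 2 libraries a group, the smallest two-sided p of an exact permutation test is 0.333, the value found for U1, U2, U6 and U11.

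U4, which keeps U6 inactive until the spliceosome is assembled, was measured through 2 of its 3 annotated copies. The copy snRNA:U4:38AB had 24.1 and 48.6 CPM in the mutant libraries, against 19.8 and 58.3 CPM in the wildtype libraries. The copy snRNA:U4:39B had 23.1 and 34.2 CPM in the mutant libraries, against 20.4 and 55.9 CPM in the wildtype libraries. In both copies the mutant values lay between the wildtype values. The log2 fold changes were -0.16 (SE 0.47) and -0.47 (SE 0.39), and neither passed (edgeR adjusted p = 0.81 and 0.377). The sign of U4 rested on 1 library: without wildtype replicate 2 the class was at 0.66.

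**Figure D2:**
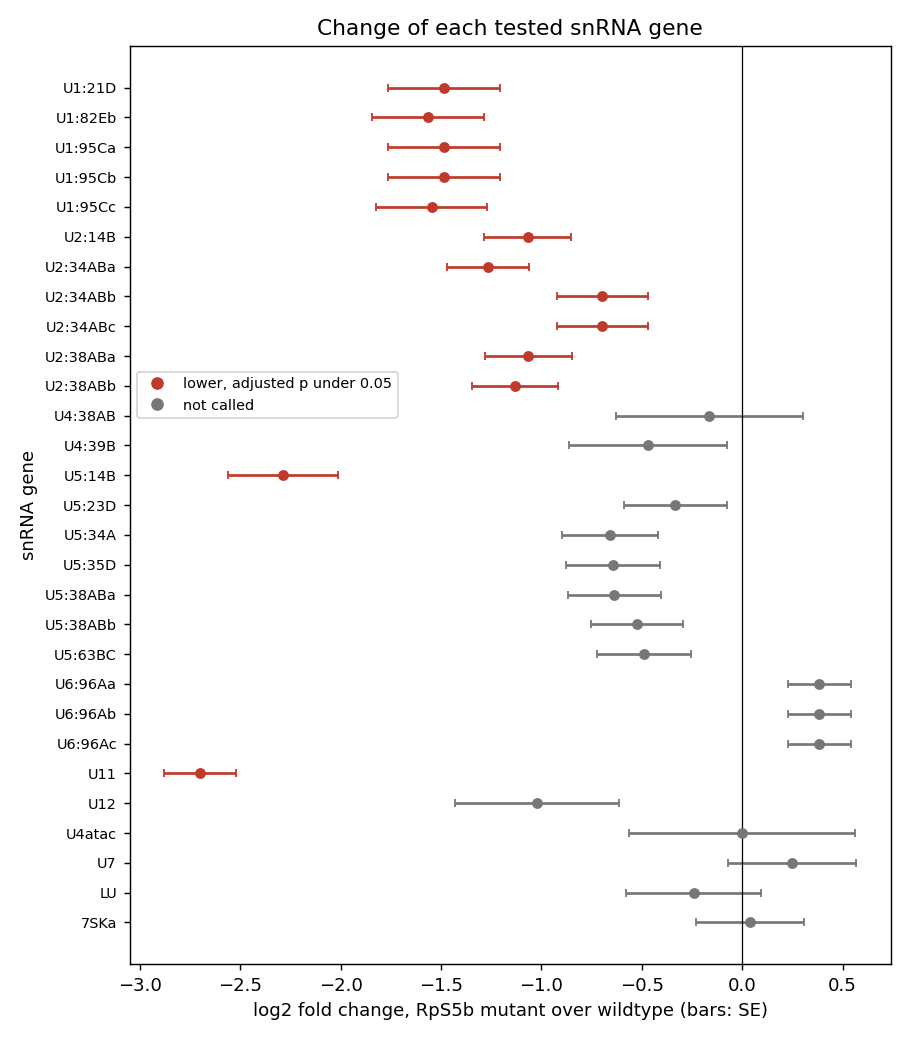
Log2 fold change, RpS5b mutant over wildtype, of the 29 tested snRNA genes, with bars for the standard error and red for genes lower at an adjusted p under 0.05. The U1 and U2 copies, U5:14B and U11 lie left of -0.6 in red, and the 3 U6 genes lie together at 0.38.

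Of the 7 U5 copies 1 was called lower, and the log2 fold changes of all 7 were negative. The copy snRNA:U5:14B, on chromosome X at 16254008 to 16254117 on the minus strand, had 29.5 and 32.6 CPM in the mutant libraries, against 106 and 195 CPM in the wildtype libraries. Its log2 fold change was -2.29 (SE 0.27, edgeR adjusted p = 7.89e-04), 0.205 times the wildtype level, and its call was kept in all 12 alternatives. The copy snRNA:U5:23D, on chromosome 2L at 3048701 to 3048831 on the plus strand, had 91.6 and 128 CPM in the mutant libraries, against 105 and 170 CPM in the wildtype libraries, and was at -0.33 (SE 0.26, edgeR adjusted p = 0.337). Of the other 5 copies, snRNA:U5:34A, snRNA:U5:35D and snRNA:U5:38ABa had nearly equal counts in every library, and all 5 lay between -0.66 and -0.49 on the log2 scale without passing. Those 3 did not overlap between the groups (edgeR adjusted p between 0.0594 and 0.0608). They passed with scaling by total counts, with the replicate block and without a filter on low counts. They did not with DESeq2's size factors or Wald test, TMM over coding genes or a filter at 10 CPM, and after thinning only snRNA:U5:35D passed. Each of the 5 passed when wildtype replicate 1 was left out, and each also when mutant replicate 2 was.

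Within a library, reads of the copies can be compared without any scaling between libraries. The counts of snRNA:U5:14B were 0.322 and 0.255 times those of snRNA:U5:23D in the mutant libraries, against 1.02 and 1.15 times in the wildtype libraries. Against snRNA:U5:34A they were 1.27 and 1.51 times as many in the mutant libraries and 4.26 and 4.40 times in the wildtype libraries. The ratio of snRNA:U5:23D to snRNA:U5:34A was 3.94 and 5.92 in the mutant libraries, against 4.19 and 3.85 in the wildtype libraries, with overlapping groups. In U2 the counts of snRNA:U2:34ABa were 0.623 and 0.634 times those of snRNA:U2:34ABb in the mutant libraries, against 0.984 and 0.898 times in the wildtype libraries. The other U2 copies shifted the same way, with snRNA:U2:14B at 0.604 and 0.635 times snRNA:U2:34ABb in the mutant libraries, against 0.825 and 0.788 times in the wildtype libraries. In U1 the counts of snRNA:U1:82Eb were 0.912 and 0.913 times those of snRNA:U1:21D in the mutant libraries, against 0.973 and 0.954 times in the wildtype libraries. These pairs were chosen after their values were seen, and the groups are too small for an exact test to pass. How reads that match several copies were placed is not stated in the labels or headers, and copies with equal counts are not separate measurements.

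**Figure D3:**
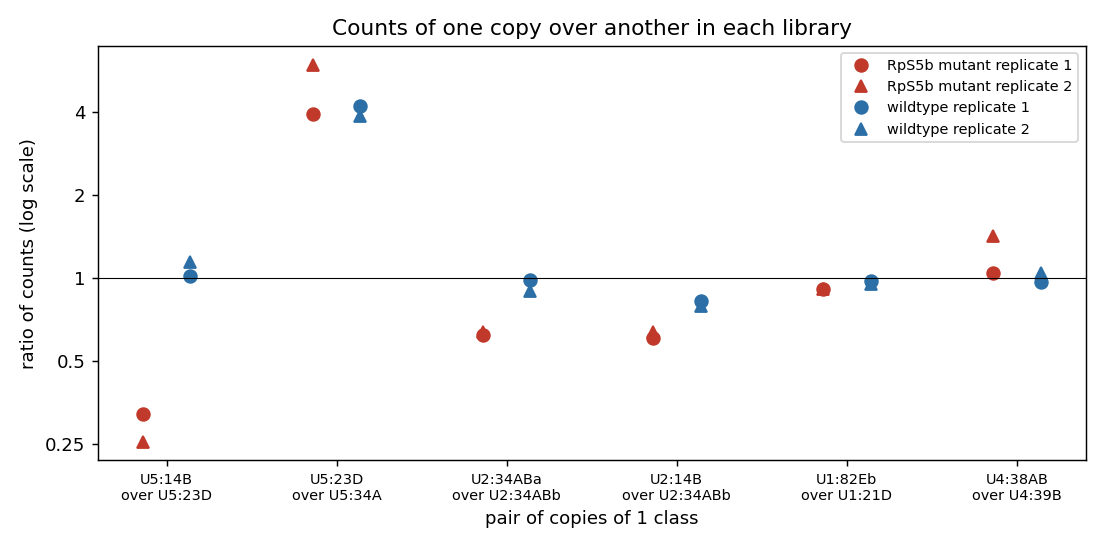
Ratio of the counts of one copy to those of another copy of the same class (log scale), with 1 point per library, mutant libraries at the left of each pair. The ratio of U5:14B to U5:23D is at most 0.322 in the mutant libraries and at least 1.02 in the wildtype libraries, and the U2 ratios are lower in both mutant libraries.

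U11, which pairs with the 5′ splice site of minor introns, had the largest fall among the snRNA genes tested. The gene lies on chromosome 3L at 3893056 to 3893330 (275 nt) on the minus strand and had 643 and 340 counts in the mutant libraries, against 884 and 1588 in the wildtype libraries. In CPM this was 44.6 ± 7.77 in mutant ovaries and 289.8 ± 4.78 in wildtype ovaries (SD, n = 2 each), with no overlap. The log2 fold change was -2.70 (SE 0.18, edgeR adjusted p = 8.11e-05), 0.154 times the wildtype level, and it lay between -2.91 and -2.53 over 12 alternatives, each with the call. U12, its partner at the branch point of minor introns, had 48.5 and 61.6 CPM in the mutant libraries, against 57.4 and 163 CPM in the wildtype libraries. The groups of U12 overlapped, and its log2 fold change of -1.02 (SE 0.41) did not pass (edgeR adjusted p = 0.0815). Without wildtype replicate 2 U12 was at -0.076. It passed without wildtype replicate 1, at -1.57 (edgeR adjusted p = 0.00274), and without mutant replicate 2, at -1.20 (edgeR adjusted p = 5.11e-06). The counts of U11 were 1.03 and 0.634 times those of U12 in the mutant libraries, against 4.99 and 1.80 times in the wildtype libraries. U4atac was measured with few counts, 36 and 47 in the mutant libraries against 9 and 25 in the wildtype libraries, and was at 0.00060 (SE 0.56) on the log2 scale.

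The members outside the spliceosome, and LU, did not pass in either direction. U7 had 44.9 and 86.5 CPM in the mutant libraries, against 43.1 and 66.1 CPM in the wildtype libraries, a log2 fold change of 0.25 with SE 0.32 (edgeR adjusted p = 0.569). 7SKa had 64.1 and 119 CPM in the mutant libraries, against 85.5 and 92.3 CPM in the wildtype libraries, and was at 0.038 (SE 0.27, edgeR adjusted p = 0.926). LU had 598 and 1243 CPM in the mutant libraries, against 984 and 1193 CPM in the wildtype libraries, and was at -0.24 (SE 0.33, edgeR adjusted p = 0.595). For all 3 the mutant libraries enclosed or overlapped the wildtype values. In CPM, replicate 1 was the lower library of its group for nearly every class: in the mutant for 10 of 11 classes, all but U11, and in wildtype for 10 of 11, all but U1. Without mutant replicate 2 U7 was at -0.29, LU at -0.86 and 7SKa at -0.47, and without mutant replicate 1 they were at 0.62, 0.17 and 0.39. Without wildtype replicate 1 U7 was at -0.018, and without wildtype replicate 2 at 0.59.

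The order of the classes by level per length differed between the groups. By the mean over libraries of the class median of the deposited RPKM, taken over the tested copies, the order in mutant ovaries was LU at 7727, U1 at 6023, U7 at 899.9, U6 at 838, U2 at 799.8, U12 at 223, U4 at 222, U5 at 207, 7SK at 200.4, U11 at 155 and U4atac at 24.9. In wildtype ovaries it was U1 at 16267, LU at 8707, U2 at 1721, U11 at 983, U7 at 709, U6 at 617, U12 at 420.1, U5 at 279, U4 at 246, 7SK at 186 and U4atac at 21.7. U11 was thus the fourth class in wildtype ovaries and stood below all but U4atac in mutant ovaries. In the mutant libraries LU and U1 overlapped, as did U7, U6 and U2, and U12, U4, U5 and 7SK. U11 there, at 168 and 142 RPKM, overlapped with U4 and 7SK. In the wildtype libraries U7 and U6 overlapped, as did U12, U5 and U4, while U1, LU, U2 and U11 were apart from their neighbours. 7SK, at 190 and 182 RPKM there, overlapped with U4 and lay below U12 and U5. U12, at 238 and 602 RPKM there, also reached the lower U7 library at 600.0. U6atac was left out of this order, with at most 2 counts in a library.

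Of the 31 members with a counted region, 11 lay within the span of another gene, and values of the members and of these genes are set side by side. snRNA:U1:95Cc and snRNA:U1:95Cb lie inside CG34355 on the same strand. CG34355 had 60 and 37 counts in the mutant libraries, against 1 and 1 in the wildtype libraries, while both U1 copies were lower in the mutant. The gene Atg18b around snRNA:U4:39B rose by 0.89 on the log2 scale (SE 0.19, edgeR adjusted p = 0.00857), while the U4 copy was at -0.47. FASN2, which holds LU and snRNA:U5:23D in its span, was at -1.38 (SE 0.49, edgeR adjusted p = 0.0569). Fie, on the opposite strand around U11, had 3 and 2 counts in the mutant libraries, against 0 and 1 in the wildtype libraries. Baldspot, on the opposite strand around U12, was at -0.47 and Eip63E, around U7, at -0.23, and neither passed. The gene cno around U4atac was at 0.39 and Esyt2 around snRNA:U6:96Aa at 0.60, and neither passed.

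Other short non-coding RNAs were counted in the same tables. The small Cajal body RNAs (scaRNAs) guide the chemical modification of snRNAs. Of 12 scaRNA genes tested, 3 fell and 9 did not pass, with a median log2 fold change of -0.38, a share of 25.0% lower that is near the 20.9% of all genes. The scaRNA scaRNA:MeU5-G38 had 12.9 and 13.3 CPM in the mutant libraries, against 44.7 and 35.5 CPM in the wildtype libraries, a log2 fold change of -1.60 with SE 0.15 (edgeR adjusted p = 3.26e-04). The others that fell were scaRNA:PsiU1-6 at -1.30 and scaRNA:MeU2-C28 at -0.79. All 3 were named after their values were seen, and each name gives the snRNA it modifies. Of 214 small nucleolar RNA genes, which include guides for ribosomal RNA, 52 fell and 12 rose, with a median of -0.39. These are 24.3% lower, near the share of all genes, and 5.61% higher, against 20.5% of all genes. Of 276 transfer RNA genes, 8 fell and 50 rose, with a median of 0.28. These are 18.1% higher, near the 20.5% of all genes, and 2.9% lower, against 20.9% of all genes. Several copies of a transfer RNA had the same log2 fold change, so the genes are not separate measurements. The snRNA median of -0.66 counts each copy, and copies of a class share reads. Over 14 alternatives it lay between -0.97 and -0.16, a range that holds the scaRNA and snoRNA medians. With summed counts of a class it was less negative than both, so the order of the 3 depends on how copies are counted. The differences between these medians and that of the snRNAs were not tested.

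**Figure D4:**
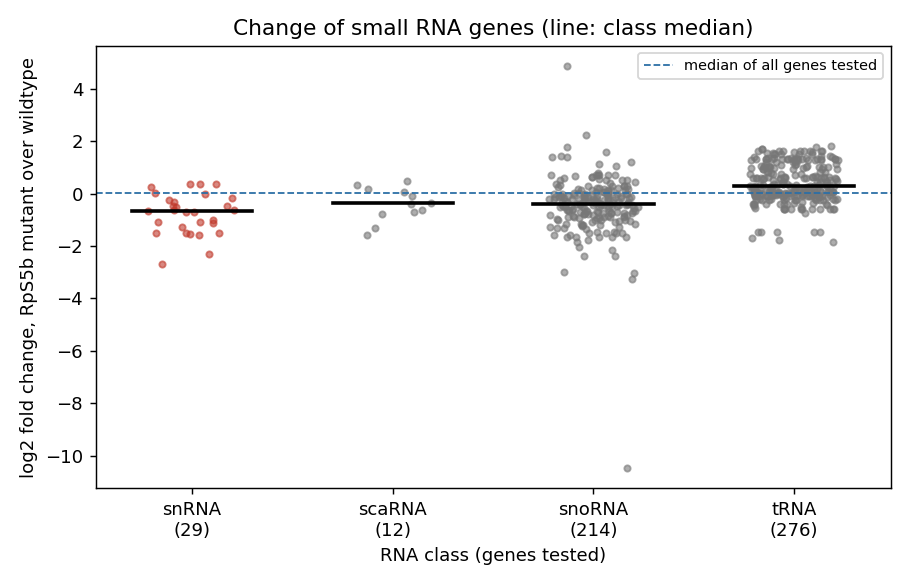
Log2 fold change, RpS5b mutant over wildtype, of every tested gene of 4 classes of small RNA, with 1 point per gene, a black line at the class median and a dashed line at the median of all genes tested. The snRNA median is -0.66, against -0.38 for scaRNAs, -0.39 for snoRNAs and 0.28 for tRNAs. Each snRNA copy is 1 point, copies of a class share reads, and with summed counts of a class the snRNA median is less negative than those of scaRNAs and snoRNAs. The lowest snoRNA point is a gene nearly without counts in the mutant, and its fitted value depends on the prior count.

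The proteins that make up snRNPs and those that make snRNAs were followed through their own footprints. In all, 71 genes of 9 lists were tested, of which 8 rose, 15 fell and 48 did not pass, with a median log2 fold change of -0.15. The share that fell, 21.1%, was near the 20.9% of all genes tested, and the share that rose, 11.3%, was below their 20.5%. By DESeq2's Wald test 2 rose and 8 fell, against 10.9% and 14.6% of all genes by that test. Those that rose numbered 3 without mutant replicate 1, 5 without mutant replicate 2, and 2 without either wildtype replicate 1 or wildtype replicate 2. Those that fell numbered 10 without wildtype replicate 1.

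The Sm proteins form the ring around the Sm site of the snRNAs made by RNA polymerase II. Of 6 Sm genes tested, 1 rose (16.7%, against 20.5% of all genes) and 5 did not pass, with a median of 0.21. SmF had 23.6 ± 2.93 CPM in mutant ovaries and 15.1 ± 0.297 CPM in wildtype ovaries (SD, n = 2 each), which gave a log2 fold change of 0.63 with SE 0.15 (edgeR adjusted p = 0.0140), and lost its call in 4 of 12 alternatives. SmD2 was at 0.31 and did not pass. The LSm proteins form the like ring on U6, and in another combination take part in mRNA decapping. The U6 ring was covered in part only: LSm3, LSm4 and LSm7 were tested, while LSm2, LSm5, LSm6 and LSm8 matched no symbol. The other genes tested were LSm1 of the decapping ring and Lsm11 of the U7 particle. Of 5 LSm genes tested 0 rose and 0 fell by edgeR's test, with a median of -0.15. LSm1 at -0.47 had the smallest unadjusted p of the list, 0.0538, so that 0 had an unadjusted p under 0.05, and DESeq2's Wald test called 0. Without mutant replicate 2 LSm1 was at -0.64 (edgeR adjusted p = 0.0414). LSm7 was at -0.15 and did not pass.

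Proteins of the U1 and U2 particles went both ways. The list of 6 genes also held U2af38 and U2af50 of the auxiliary factor U2AF, which is part of neither particle. Of the 6, 3 rose and 2 fell, 50% and 33.3%, against 20.5% and 20.9% of all genes, with a median of 0.038. U2af50 was among those that rose, at 0.42 (edgeR adjusted p = 0.0410), and U2af38 at -0.34 did not pass. Both are named here outside the rule for naming. snRNP-U1-C, a U1 protein that acts at the 5′ splice site, had 29.0 ± 2.56 CPM in mutant ovaries and 15.0 ± 0.526 CPM in wildtype ovaries (SD, n = 2 each), which gave a log2 fold change of 0.94 with SE 0.14 (edgeR adjusted p = 0.00197). snRNP-U1-70K, the protein of the first U1 stem-loop, was at 0.49 (edgeR adjusted p = 0.0222) and lost its call in 5 of 12 alternatives. snf, which in the fly serves both particles, had 33.0 ± 1.33 CPM in mutant ovaries and 57.6 ± 0.540 CPM in wildtype ovaries (SD, n = 2 each), which gave a log2 fold change of -0.80 with SE 0.13 (edgeR adjusted p = 0.00237). Its U2 partner U2A was at -0.93 (SE 0.13, edgeR adjusted p = 0.00164). Footprint counts of the RNAs of both particles were lower in the same mutant libraries, at -1.49 and -1.07.

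Of 10 genes of SF3a and SF3b, the U2 subcomplexes that hold the branch point, 1 rose and 1 fell, with a median of -0.018. Each is 10%, against 20.5% higher and 20.9% lower over all genes. Phf5a was at -0.64 (edgeR adjusted p = 0.0134) and Sf3b6 at 0.49 (edgeR adjusted p = 0.0358), with calls lost in 2 and 6 of 12 alternatives. The SF3a gene noi at 0.29 and Sf3b5 at -0.19 did not pass. Of 10 genes of the U4/U6 and U5 particles, 1 rose (10%, against 20.5% of all genes) and 9 did not pass. Their median was -0.19. The one that rose was hoip, whose protein binds U4 and the guides of box C/D snoRNPs. It had 163 ± 14.6 CPM in mutant ovaries and 81.8 ± 6.73 CPM in wildtype ovaries (SD, n = 2 each), which gave a log2 fold change of 0.9997 with SE 0.15 (edgeR adjusted p = 0.00208). The helicase gene Brr2, whose protein unwinds U4 from U6, was at -0.39 (edgeR adjusted p = 0.0538), Prp31 at -0.37 and U4-U6-60K at 0.055, and none of these passed.

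The Integrator complex cleaves the 3′ ends of the snRNAs that RNA polymerase II makes. Its list took only symbols made of IntS and a number, and subunits under other symbols were not looked for. Of the 11 genes listed, 6 fell and 5 did not pass, with a median of -0.48. Those that fell made up 54.5%, against 20.9% of all genes tested. DESeq2's Wald test called 4 of the 11 lower, against 14.6% of all genes by that test. IntS9, a subunit of the cleavage module, had 7.04 ± 0.275 CPM in mutant ovaries and 17.2 ± 1.83 CPM in wildtype ovaries (SD, n = 2 each), which gave a log2 fold change of -1.27 with SE 0.18 (edgeR adjusted p = 0.00144). IntS14 was at -1.21 (SE 0.16, edgeR adjusted p = 0.00121), and both calls were kept in all 12 alternatives. IntS3 at 0.16 and IntS6 at 0.026 did not pass. Of 6 genes of snRNA promoter recognition and RNA polymerase III initiation, 1 fell (16.7%, against 20.9% of all genes) and 5 did not pass. Their median was -0.38. The one that fell was Pbp95, at 1.70 ± 0.456 CPM in mutant ovaries and 3.88 ± 0.00778 CPM in wildtype ovaries (SD, n = 2 each), below the level set for naming and named after its value was seen. Tbp, the TATA-binding protein gene, was at -0.61 and did not pass.

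Of 14 genes of snRNP assembly, capping and import, 2 rose and 4 fell, with a median of -0.0046. These are 14.3% higher and 28.6% lower, against 20.5% and 20.9% of all genes. rig, the fly Gemin5 gene, had 35.9 ± 2.08 CPM in mutant ovaries and 114 ± 4.94 CPM in wildtype ovaries (SD, n = 2 each), which gave a log2 fold change of -1.67 with SE 0.14 (edgeR adjusted p = 1.67e-04), with the call kept in all 12 alternatives. In human cells Gemin5 recognises snRNAs for the SMN complex, and in the fly rig is also known as a cofactor of the ecdysone receptor. Gem3, a helicase gene of the SMN complex, was at -0.75 (edgeR adjusted p = 0.0142) and lost its call without wildtype replicate 2, at -0.60 (edgeR adjusted p = 0.0877). csul, which encodes the methyltransferase of Sm proteins, was at 0.67 (edgeR adjusted p = 0.0309) and lost its call in 4 of 12 alternatives, and Glos at 0.17 did not pass. Of the 3 genes of the 7SK particle, 1 fell (33.3%, against 20.9% of all genes) and the other 2 did not pass. Their median was -0.39. Hexim, the inhibitor that 7SK presents to the elongation kinase, was at -0.69 (edgeR adjusted p = 0.0191) and lost its call in 5 of 12 alternatives, and Larp7, which binds 7SK, was at -0.39 and did not pass. 7SKa itself was at 0.038 in the same libraries.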

How the data were processed

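The authors deposited 1 table per library, 4 in all, with counts, coverage signal per nucleotide, RPKM and length for 34729 transcripts. Per the file headers, the counts are of reads 25 to 100 nt long, each assigned to 1 position by an offset of 12 nt, with no region masked. The deposited signal is the count over the length, and the deposited RPKM is the count scaled by the length and by the reads in the header. Per the submitters' processing notes the build was BDGP6, and the tools named were TopHat2 2.1.2 and Bowtie 1.0.0, bedtools 2.26.0, SAMtools 0.1.19 and DESeq2. No source used here gives the placing of reads with several matches.

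Transcripts were named by coordinates in a RefSeq table of Release 6 (same span, a shared end, at least 80% overlap both ways, or a shared splice junction), which named 34471 of them (99.26%). The rest held between 0.418% and 0.584% of a library's transcript counts and were left out. The transcript with the highest mean count stood for its gene. edgeR 4.0.16 in R 4.3.3 was run on the counts of all genes kept by filterByExpr (7783), with TMM scaling, genotype as the only term, and Benjamini-Hochberg adjustment at 0.05. Standard errors are the log2 fold change over the square root of F. The function was tested on simulated data first. Transfer RNA genes held between 54.8% and 64.0% of gene counts. No molecular identifiers were used, so PCR copies of a fragment add to its count.

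The snRNA genes and the 9 protein lists were chosen with earlier results of these data known. All snRNA genes were named, and, of each protein list, the 2 genes with the lowest p on either side of 0 among those averaging 10 CPM or more. Symbols that the RefSeq table did not hold, SmG, LSm2, LSm5, LSm6, LSm8 and Usb1, were left out. Alternatives were other scalings, filters, DESeq2 1.42.0, a replicate block, thinning to 1 total, each library left out, and other handling of copies.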

Additional observations from a re-analysis of the deposited data

How the results depend on the processing

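Over 12 alternatives U11, U5:14B, 2 of the 5 U1 genes and 4 of the 6 U2 genes kept their direction and call. Without a filter on low counts 20 snRNA genes were lower. With the replicate block 3 snRNA genes, the equal U6 copies, were higher (log2 fold change 0.39) and 19 lower. Nothing in the labels says that a number marks a shared batch, and the deviations of same-numbered libraries correlated at 0.25 across genes. After thinning, which draws reads of equal copies separately, 1 snRNA gene was higher and 14 lower, and 5 of the protein genes were higher. With summed counts of a class the median over classes was -0.25. DESeq2's Wald test called 2 of the protein genes higher and 8 lower, and 846 of all genes higher, against 1596 in edgeR's test. With each library left out in turn, the protein genes lower numbered between 10 and 15, the snRNA genes lower between 8 and 22 and the protein genes higher between 2 and 5, and 1036 of all genes were higher without wildtype replicate 2. The medians over the same 4 settings lay between -0.97 and -0.16 for the snRNA genes tested, -1.86 and -1.20 for U1, -1.32 and -0.78 for U2, -0.84 and 0.66 for U4, -0.95 and -0.16 for U5, 0.25 and 0.49 for U6, -2.91 and -2.53 for U11, -1.57 and -0.076 for U12, -0.29 and 0.62 for U7, -0.86 and 0.17 for LU, and -0.47 and 0.39 for 7SK. The cause of these changes was not tested. Each of the 31 snRNA genes with a counted region matched 1, so the alternative with another region was not run. Counts of the minor snRNAs U4atac and U6atac were too low to show a change of modest size.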

Other observations

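Footprint counts of the RNA of RNase MRP, an enzyme of ribosomal RNA processing, were lower in the same mutant libraries. RNaseMRP:RNA had 706 and 786 CPM in the mutant libraries, against 1404 and 1363 CPM in the wildtype libraries, a log2 fold change of -0.89 with SE 0.19 (edgeR adjusted p = 0.00861). RNaseP:RNA, the related RNA of transfer RNA processing, had 22 and 14 counts in the mutant libraries, against 8 and 6 in the wildtype libraries, and was at 0.00031 (SE 0.29). The 7SL RNA of the signal recognition particle, counted alike at its annotated copies 7SLRNA:CR32864 and 7SLRNA:CR42652, had 478 and 725 CPM in the mutant libraries, against 792 and 1124 CPM in the wildtype libraries. It was at -0.67 (SE 0.27) and did not pass (edgeR adjusted p = 0.0815).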
